A study of Mus musculus with 2 samples.

Results

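Tagged region B clusters with near neighbours are short stretches of RNA recovered with epitope-tagged FAM120A that lie beside other such stretches on the same strand. They were chosen from the list of read clusters enriched in the tagged library over the untagged library. A cluster was kept when the authors' name for it had only region B in it and another cluster of the list, of any name, lay within 1000 nt on the same chromosome and strand. There were 2870 of them among 11670 clusters of the list (24.6%), and they made up 50.1% of its 5730 region B clusters. The other 2860 region B clusters had no cluster within 1000 nt and are called isolated here. What the letters B, C1 and C2 stand for is not given in the sources used here.

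FAM120A binds RNA and is found together with Argonaute 2, the protein that carries microRNAs to their target messenger RNAs. In iCLIP, ultraviolet light joins a protein to the RNA it touches, the complex is pulled down, and reverse transcription tends to stop at the joined base. Read starts therefore pile up at or next to contacts, and a protein that contacts a long stretch of RNA leaves many read starts along it. Background RNA that comes down without the protein also gives reads, and a control without the epitope measures it.

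The study held 2 libraries from mouse embryonic stem cells, with 1 library per group. The tagged group was the line TT-FHFam120a, with a lentiviral pSLIK transgene coding for FAM120A with FLAG and HA epitopes. The untagged group was the line TT-Fam120a, with the same kind of transgene but no epitope. Both transgenes were switched on with doxycycline at 2.5 µg/mL, and both lysates went through immunoprecipitation for FLAG and then for HA. Whether a line was grown from 1 clone, and how much FAM120A it made from its own gene, is not given in the sources used here. Positions are those of the mm9 build. How deeply either library was sequenced is unknown.

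Region B clusters with near neighbours held few reads. The median was 6 reads in the tagged library, with a range of 5 to 154, and 73.3% held 5 to 7 reads. The untagged library had 0 reads at 2630 of the 2870 (91.6%, Wilson 95% interval 90.6 to 92.6). This share follows in large part from the listing, because every cluster of 5 to 7 reads in the list had 0 untagged reads, whatever its name. The median listed log2 ratio of tagged to untagged reads, with 1 added to each, was 2.81 (2.58 to 2.81) and the range was 1.09 to 5.43. Of the 2870 clusters 857 (29.9%) reached a listed log2 ratio of 3, below the 38.7% of the whole list. Against 0 untagged reads that ratio is set by the tagged reads alone, so 5 reads always gave 2.58 and 7 reads gave 3.

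The smallest clusters do not by themselves separate the libraries. Of the 2870 clusters, 1248 (43.5%) held 5 tagged reads against 0. For a single such cluster the depth-adjusted ratio of tagged to untagged reads had an exact binomial 95% interval that began at 0.611, which includes equal levels. Against a floor of 3 untagged reads the ratio was 1.11-fold, which is no lower bound. When depth was taken into account, 1610 clusters (56.1%) were under a p of 0.05 in an exact binomial test (one-sided), against 74% of the list. That test compares these 2 libraries and not the conditions. All intervals here cover counting error only. Reads may be copies of 1 molecule and clusters side by side share their RNA, so no test between sets of clusters was made.

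At matched read counts the region B clusters with near neighbours had median ratios above those of isolated region B clusters from 8 reads up, and intervals that overlapped those of region C2 clusters. Among clusters of 8 to 12 reads the median log2 ratio was 3.17 (3.17 to 3.32) for the 516 with near neighbours, 2 (1.87 to 2.12) for 465 isolated ones and 3.17 (3.17 to 3.32) for 1579 of region C2. At 13 to 19 reads the medians were 3.81 (2.58 to 3.81) over 145 clusters, 1.51 (1.5 to 1.66) over 305 and 2.74 (2.66 to 3.81) over 959. In that class 50.3% of the clusters with near neighbours and 49.5% of region C2 had 0 untagged reads, so that these 2 medians fell on either side of the step between 0 and more untagged reads. At 20 to 49 reads the medians were 3.17 (3 to 3.42) over 91 clusters, 1.25 (1.2 to 1.29) over 415 and 3.28 (3.22 to 3.37) over 848. At 50 or more reads the 13 clusters with near neighbours had a median of 4.27 (3.03 to 4.72), the 261 isolated ones 0.77 (0.70 to 0.83) and the 285 of region C2 3.81 (3.70 to 3.93). The median of isolated clusters was lower in each class of more reads from 8 reads up, and that of clusters with near neighbours was not. The p limit of the list, 0.05, admits lower ratios at more reads. The lowest log2 ratio of isolated clusters was 1.46 at 8 to 12 reads and 0.21 at 50 or more. How much of the fall came from the listing was not tested. That the intervals of clusters with near neighbours and of region C2 overlapped does not show that their ratios are equal.

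Clusters without an untagged read were more frequent among those with near neighbours than among isolated ones. At 8 to 12 reads the untagged library had 0 reads at 81.2% of the clusters with near neighbours, 42.4% of isolated region B and 71.2% of region C2. At 20 to 49 reads the shares were 36.3%, 2.17% and 28.9%. Of the 104 clusters with near neighbours that held 20 or more reads, 67 had a log2 ratio of at least 3, or 64.4% (54.9 to 73). The share was 46.3% over all clusters of that size in the list, 4.59% (3.25 to 6.44) over isolated region B and 68% (65.3 to 70.7) over region C2. From 8 reads up it was 73.1% (69.8 to 76.1) for clusters with near neighbours against 54.7% over the list.

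**Figure D1:**
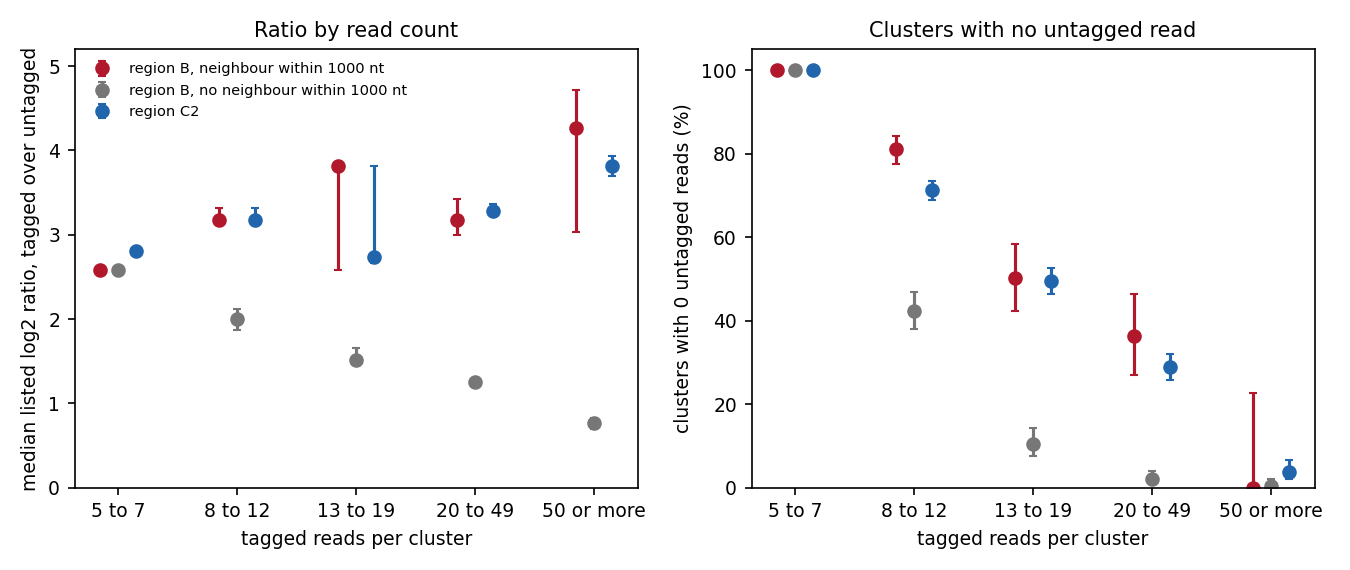
Median listed log2 ratio of tagged over untagged reads (left) and the share of clusters with 0 untagged reads (right) by tagged reads per cluster, for region B with and without a neighbour within 1000 nt and for region C2. Bars are 95% intervals for counting error. At 20 to 49 reads the medians were 3.17, 1.25 and 3.28, and at 5 to 7 reads all clusters had 0 untagged reads.

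Reads of these clusters were spread over several positions. From 8 reads up, the median share of a cluster's reads at its highest position was 37.5% (37.5 to 40) over 765 clusters with near neighbours, 91.7% (90.5 to 92.6) over 1446 isolated ones and 34.6% (33.3 to 35.7) over 3671 of region C2. A cluster was called stacked when over 75% of its reads lay at 1 position and spread when at most 50% did. At 20 or more reads, 70 of 104 clusters with near neighbours were spread (67.3%, 57.8 to 75.6) and 6 were stacked (5.77%, 2.67 to 12). Of 676 isolated region B clusters of that size, 7.1% were spread and 75.7% (72.4 to 78.8) were stacked. Over all 1995 clusters of that size in the list, 56.4% (54.2 to 58.6) were spread and 27.6% were stacked. Over the 1133 of region C2 the shares were 83.5% (81.2 to 85.5) and 1.94%. The smallest region B clusters with and without near neighbours differed in the same direction as the larger ones. At 5 to 7 reads, 32.9% of the 2105 clusters with near neighbours had no position with more than 1 read, against 15.2% of 1414 isolated ones. No region C2 cluster had only 1 read at its highest position, and every C1 cluster did, so that this measure is tied to the authors' classes and is not set against region C2 here.

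**Figure D2:**
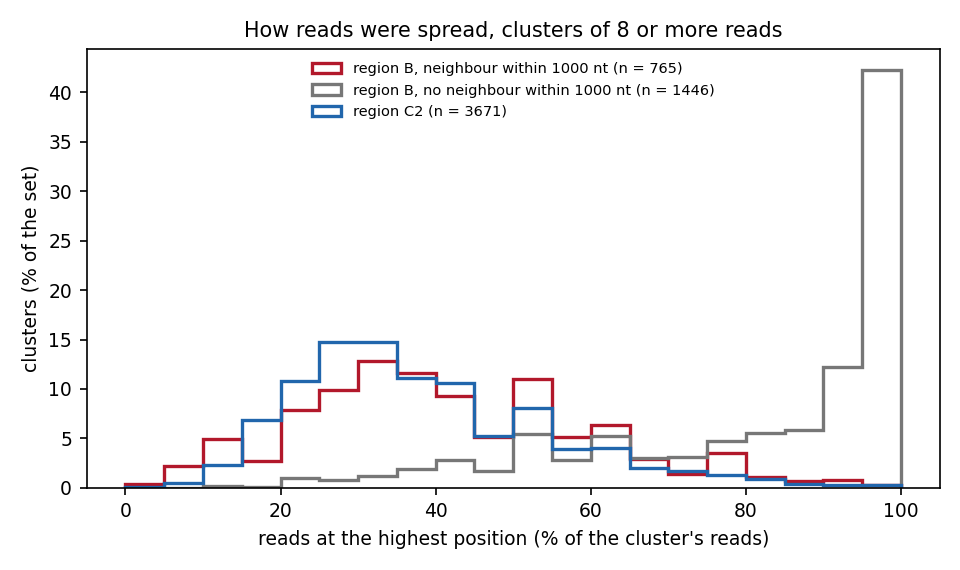
Distribution of the share of a cluster's reads at its highest position, in classes of 5 percentage points, for clusters of 8 or more reads. Region B clusters with near neighbours (median 37.5%) and region C2 clusters (34.6%) were centred below 50%, and isolated region B clusters (91.7%) gathered near 100%.

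Within a class of shape the median ratio was higher with near neighbours, but for stacked clusters of 20 or more reads the intervals overlapped. Neither shape nor reads were matched within a class. Among spread clusters of 20 or more reads, the median share at the highest position was 30% (26.9 to 34.8) with near neighbours. It was 44.6% (40.6 to 46.7) for isolated ones. Among clusters of 20 or more reads called spread, the median log2 ratio was 3.28 (3.06 to 4.39) over the 70 with near neighbours and 1.16 (0.94 to 1.55) over 48 isolated ones, whose medians of reads were 24.5 and 37. From 8 reads up the medians were 3.17 (3.17 to 3.32) over 574 and 1.93 (1.74 to 2.32) over 176, with medians of 10 and 12 reads. Among stacked clusters of 8 or more reads the medians were 3.32 (1.87 to 3.46) over 33 with near neighbours, which held a median of 10 reads, and 1.49 (1.46 to 1.58) over 1006 isolated ones, which held 20. At 20 or more reads, however, the 6 stacked clusters with near neighbours had a median of only 1.54 (1.09 to 2.87), and 0 of them reached a log2 ratio of 3. The 6 with near neighbours had 1 to 35 untagged reads before scaling, and 5 of them lay over 200 nt from their nearest cluster.

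From 8 reads up, the ratio was nearly level with distance up to 1000 nt and lower far beyond it. The stacked share was highest far beyond it. Over region B clusters of 8 or more reads the median log2 ratio was 3.22 (3.17 to 3.32) where the nearest cluster lay within 25 nt, 3.30 at 51 to 100 nt, and 3.17 (2.81 to 3.17) at 501 to 1000 nt. It was still 3.17 (2 to 3.46) over the 17 clusters at 1001 to 2000 nt. It was 1.89 (1.58 to 3.17) over 16 clusters at 2001 to 5000 nt, 1.58 (1 to 2.12) over 19 at 5001 to 10000 nt and 1.58 (1.49 to 1.58) over the 1277 beyond 50000 nt. The 3 distance classes between 1001 and 10000 nt hold under 20 clusters each, so where between them the ratio drops is not settled. The stacked share was 2.28% (0.979 to 5.23) within 25 nt, 8.82% (4.11 to 17.9) at 201 to 500 nt, 9.52% (3.77 to 22.1) at 501 to 1000 nt, 35.3% (17.3 to 58.7) at 1001 to 2000 nt and 70.9% (68.3 to 73.3) beyond 50000 nt. The intervals of the classes within 25 nt, at 201 to 500 nt and at 501 to 1000 nt overlapped. Reads were not matched between distance classes, with a median of 10 within 25 nt and 19 beyond 50000 nt. Without the cut at 8 reads the median log2 ratio was 2.81 (2.58 to 2.81) within 25 nt and 2.58 (2.58 to 2.58) beyond 50000 nt.

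**Figure D3:**
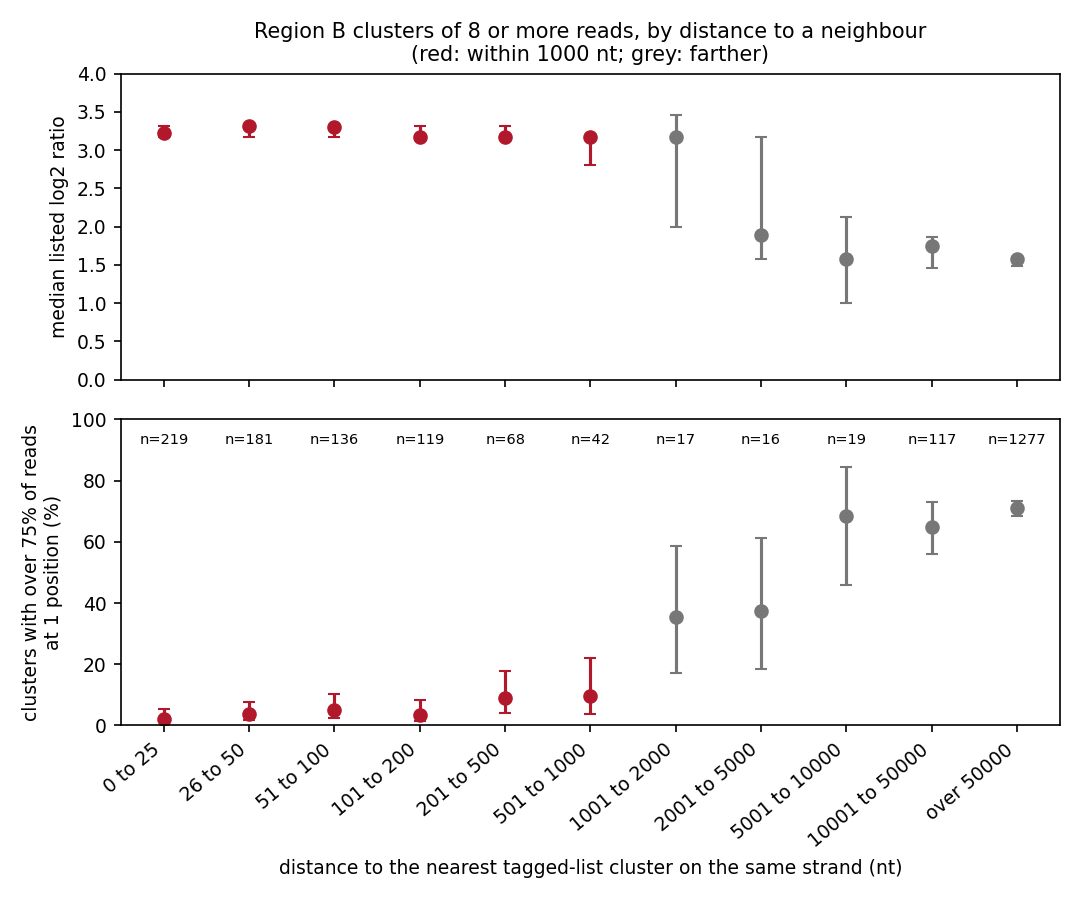
Region B clusters of 8 or more reads by distance to the nearest tagged-list cluster on the same strand: median listed log2 ratio (top) and share with over 75% of reads at 1 position (bottom), with 95% intervals for counting error and the number of clusters. The 6 classes within 1000 nt had medians of 3.17 to 3.32, and the last class, beyond 50000 nt, had 1.58. Reads per cluster were not matched between classes.

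Neighbouring clusters can share reads, which would also spread a cluster's reads. Only 2 of the 2870 clusters held more reads than their length times the reads at their highest position, so that part of their reads must lie outside the cluster. Reads from outside in the other clusters were not tested for. At 8 or more reads, 42 of the 219 clusters within 25 nt of a neighbour had at most 1 read at any position (19.2%, 14.5 to 24.9). At 26 to 50 nt the share was 1.66% (0.565 to 4.76). Whether the clusters within 25 nt count reads of their neighbour was not tested. Clusters over 200 nt from their nearest neighbour do not touch it. The 110 of them that held 8 or more reads had a median of 40% (37.5 to 44.4) of reads at the highest position and a median log2 ratio of 3.17 (3.17 to 3.32). At 20 or more reads there were 14 such clusters, of which 5 were stacked (35.7%, 16.3 to 61.2), with a median ratio of 3.6 (1.53 to 4.87). At that size the low stacked share of 5.77% thus rests on clusters within 200 nt of a neighbour, where it was 1.11% (0.196 to 6.03).

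A near neighbour is part of how the clusters were chosen, so the distances are a description. Their nearest cluster lay at a median of 61 nt (58 to 64), with 44.7% within 50 nt and 79.7% within 200 nt. The nearest cluster was of region C2 for 1301 of 2870 (45.3%), another region B for 1279 (44.6%), and a cluster joining region B and C2 names for 198 (6.9%). A region C1 cluster was nearest for 46 and a splice junction for 16. Within 1000 nt, 2344 clusters (81.7%, 80.2 to 83) had a cluster with a region C2 name. The nearest cluster lay upstream on the strand in 52.2% (50.3 to 54) of cases. On the opposite strand only 10 of the 2870 clusters (0.348%, 0.189 to 0.64) had a tagged-list cluster within 1000 nt. Among isolated region B clusters 6 of 2860 did (0.21%, 0.0962 to 0.457), with overlapping intervals.

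The clusters fell into 1209 loci, where a locus is a run of tagged-list clusters on 1 strand with gaps of at most 1000 nt. A locus held a median of 4 clusters of any name and 2 of the region B clusters. In 422 loci (34.9%) there was 1 region B cluster, in 673 there were 2 to 4, and in 8 there were 10 or more. Region B made up all clusters of 180 loci, which held 423 of the 2870 clusters. At 8 or more reads these had 99 clusters with a median log2 ratio of 3.17 (3.17 to 3.32), of which 5.05% were stacked, against 3.25 (3.17 to 3.32) and 4.2% for the 666 in loci with other names. Loci of only 2 clusters had a median of 3.17 (3.17 to 3.32) over 102 clusters of 8 or more reads, against 3.17 (2.86 to 3.32) over 79 in loci of 20 or more clusters.

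Within a locus the region B clusters were the smaller ones. In 950 loci with both region B and region C2 clusters, the median reads of region B were lower in 746 (78.5%), equal in 72 and higher in 132. Over these loci the median was 6 reads for region B and 11 (11 to 12) for C2. In the list, 742 of the 2870 region B clusters (25.9%) and no region C2 cluster had only 1 read at their highest position. How much of the difference in reads follows from the authors' classes was not tested. The log2 ratio followed the reads. The locus median of region B was lower in 625 of 950 loci when all clusters were taken. In the 379 loci with clusters of 8 or more reads of both kinds it was lower in 190, equal in 18 and higher in 171. A region B cluster had the lowest listed p of 231 of the 1029 loci that also held other names (22.4%, 20 to 25.1). What share the number of region B clusters in these loci would give by itself was not taken.

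Region B clusters lay more often at the ends of loci of 5 to 19 clusters than region C2 clusters did. In loci of 5 or more clusters, 263 of 1831 region B clusters (14.4%, 12.8 to 16) were the outermost at the 5′ end and 294 (16.1%, 14.4 to 17.8) at the 3′ end. Of the 3302 region C2 clusters in the same loci, 7.69% (6.83 to 8.65) were outermost at the 5′ end and 6.03% (5.26 to 6.89) at the 3′ end. Region C2 makes up more of the large loci, where fewer clusters can be outermost, so the shares were also taken by size of the locus. In loci of 5 to 9 clusters, 18.6% (16.2 to 21.2) of region B and 13.2% (11.3 to 15.3) of region C2 clusters were outermost at the 5′ end, and 21% (18.6 to 23.8) and 10.1% (8.43 to 11.9) at the 3′ end. In loci of 10 to 19 clusters the shares were 11.5% (9.24 to 14.2) and 6.03% (4.87 to 7.45) at the 5′ end and 12.7% (10.4 to 15.5) and 4.83% (3.8 to 6.12) at the 3′ end. In loci of 20 or more clusters they were 5.71% (3.43 to 9.36) and 3.05% (2.09 to 4.43) at the 5′ end, with overlapping intervals, as at the 3′ end (5.71% and 2.58%, 1.71 to 3.88).

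By length of the locus, over all loci of 5 or more clusters, 28.3% (26.3 to 30.5) of region B clusters lay in the last of 5 equal parts, at the 3′ side, against 20.3% (18.9 to 21.7) of region C2. The middle part held 13.3% (11.8 to 14.9) and 17.4% (16.2 to 18.8). In the part at the 5′ side the shares were 27% (25 to 29.1) and 26.1% (24.6 to 27.6), with overlapping intervals. The difference in the last part was seen in loci of 5 to 9 clusters, 32.1% (29.2 to 35.1) against 22.1% (19.7 to 24.6), and of 10 to 19, 25.7% (22.5 to 29.2) against 18.9% (16.9 to 21.1), but the intervals overlapped in loci of 20 or more, 20.8% (16.2 to 26.3) against 20% (17.4 to 22.8).

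**Figure D4:**
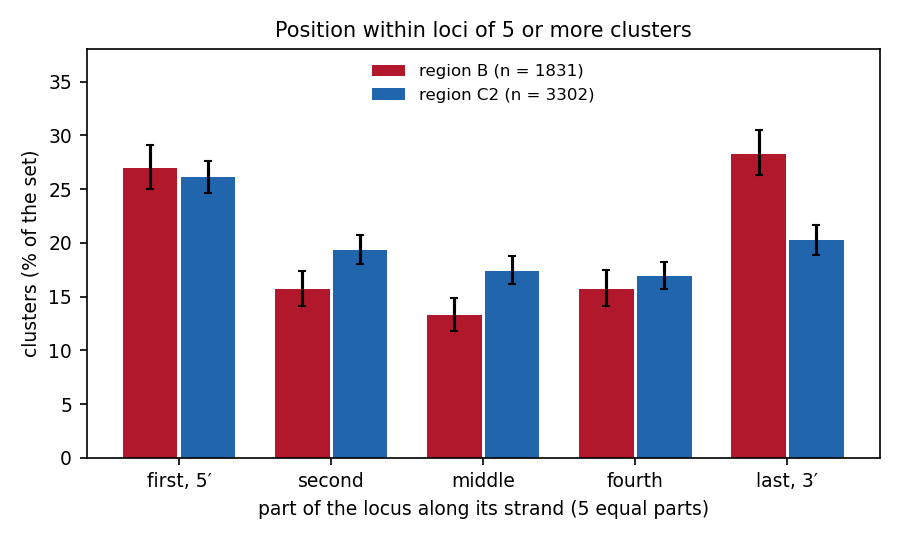
Share of 1831 region B and 3302 region C2 clusters in each of 5 equal parts of their locus, from the 5′ to the 3′ end of the strand, over loci of 5 or more clusters. Bars show Wilson 95% intervals. Region B was more frequent than C2 in the last part (28.3% against 20.3%) and less frequent in the middle part (13.3% against 17.4%), with all sizes of locus pooled.

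The 10 loci with the most region B clusters held 103 of them among 279 clusters. The untagged library had 0 reads at 92 of the 103, and 3 were stacked. On the plus strand of chromosome 1, positions 120575193 to 120580405 held 12 region B clusters with 5 to 19 reads and log2 ratios of 2.58 to 3.91, next to 16 of region C2 and 4 of joined names. On chromosome 13, minus strand, positions 99609114 to 99614501 held 11, with 5 to 19 reads and 0 untagged reads at each of them. Its largest, of 19 reads against 0, had a ratio of 4.22 against the untagged floor of 3 reads, with an exact interval from 3.11. On chromosome 6, plus strand, positions 67234092 to 67237454 held 11 with 5 to 17 reads beside 10 of region C2. On chromosome 7, plus strand, positions 120042488 to 120046468 held 11 with 5 to 15 reads against 6 of region C2, so that region B was the main class there.

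In the 2 of these loci with the most clusters of all kinds, region B clusters were few and small. The locus on chromosome 11, minus strand, at 95818562 to 95824773 had 56 clusters, of which 10 were region B with at most 9 reads, while its other clusters reached 266 reads. The locus at 133827830 to 133832733 on the plus strand of chromosome 1 had 48, of which 10 were region B with 5 to 15 reads, and the others reached 144. The remaining loci had fewer clusters. On chromosome 5, minus strand, positions 149139080 to 149143844 held 10 of 21, with 5 to 14 reads. On chromosome 10, minus strand, positions 67556080 to 67558441 held 10 of 17, with 5 to 9 reads.

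In the other two of the 10 loci the median region B cluster held 8 reads, against 5 to 7 in the 8 loci above. On the X chromosome, plus strand, positions 12868728 to 12870754 held 9 region B and 9 region C2 clusters, with 5 to 40 reads in region B. Their log2 ratios had a median of 3, and the untagged library had 0 reads at 8 of the 9. On chromosome 1, minus strand, positions 153316745 to 153318292 held 9 of 16 clusters, with 5 to 12 reads. The log2 ratios of these 9 had a median of 3.17, and all had 0 untagged reads. Members had lower median reads than the other clusters in 9 of the 10 loci, the exception being this last locus, where the medians were 8 and 6.

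**Figure D5:**
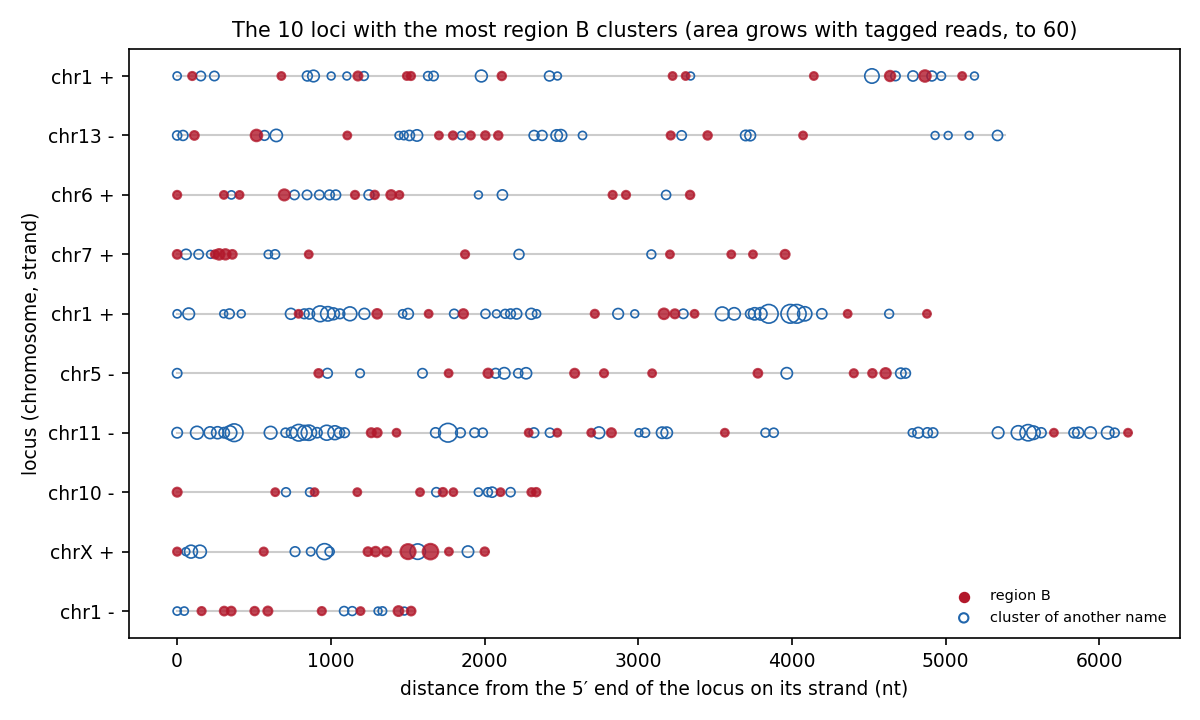
The 10 loci with the most region B clusters, each drawn along its strand from the 5′ end in nt. Filled points are region B clusters, open points are clusters of other names, and the area grows with tagged reads up to 60. The loci span 1548 to 6212 nt and hold 9 to 12 region B clusters each.

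The 10 clusters with the lowest listed p held 51 to 154 tagged reads and 1 to 6 untagged reads before scaling. The lowest, 1.51e-38 in the authors' deposited list, was at 29927209 to 29927234 on the plus strand of chromosome 2. Its 154 tagged against 4 untagged reads gave 25.7 as depth-adjusted ratio (9.82 to 95.3), and the region C2 cluster 270 nt away had 156 tagged reads and nearly the same listed log2 ratio, 4.49 against 4.47. On chromosome 9, plus strand, the clusters at 44447226 to 44447251 and 44446401 to 44446426 belonged to 1 locus of 31 clusters. They had 127 against 2 reads, a ratio of 42.3 (11.5 to 353), and 67 against 1, a ratio of 44.6 (7.74 to 1789). The plus strand of chromosome 3 held 2 of the 10. The cluster at 135128269 to 135128294 had 134 against 4 reads, a ratio of 22.3 (8.52 to 83.1). The cluster at 102861485 to 102861510 had 116 against 2 reads, a ratio of 38.6 (10.5 to 323), with only 15.5% of the reads at the highest position.

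The cluster at 145890830 to 145890855 on the minus strand of chromosome 5 had 141 against 6 reads, a ratio of 15.7 (7.02 to 43.4). The cluster at 127290336 to 127290361 on the minus strand of chromosome 1 had 78 against 1, a ratio of 52 (9.06 to 2079), in a locus made up of 5 region B clusters and no other class. The cluster at 95406097 to 95406122 on the plus strand of that chromosome had 70 reads against 1 but at most 2 at any position. Its reads exceed what its 26 nt could hold at that height, so its ratio of 46.6 (8.1 to 1868) counts reads from outside the cluster, and its neighbour 4 nt away had 91 reads. The remaining 2 were on the X chromosome, plus strand, at 166428641 to 166428666, with 66 against 3 reads and a ratio of 14.7 (4.8 to 72.9), and on chromosome 10, plus strand, at 127513578 to 127513603, with 51 against 1 and a ratio of 34 (5.83 to 1368). Of these 10 clusters 6 had the lowest p of their locus, 8 had at most 50% of their reads at the highest position and 0 had over 75%.

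Among clusters with 0 untagged reads, the one with the most tagged reads was at 93611355 to 93611380 on the minus strand of chromosome 5, with 42 reads, 24 of them at the highest position. This is 9.33-fold against the untagged floor of 3 reads, which is no lower bound, since the exact interval began at 7.26. Next were 41 reads at 58462186 to 58462211 on the plus strand of chromosome 1 (9.11-fold against that floor, exact interval from 7.08). At 57161009 to 57161034 on the minus strand of chromosome 17 there were 40 (8.88-fold, interval from 6.9). A pair of clusters had 37 reads each (8.22-fold, interval from 6.36). The one on the minus strand of chromosome 2, positions 94252096 to 94252147, lay 4 nt from a region C2 cluster with 37 reads as well and had at most 3 reads at any position. The other, at 12870230 to 12870255 on the plus strand of the X chromosome, lay in the locus described above.

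The 5 clusters of 20 or more reads with the lowest ratios were all stacked. The lowest, on chromosome 10, plus strand, at 79651998 to 79652023, had 33 tagged against 10 untagged reads, a ratio of 2.2 (1.06 to 5), and 93.9% of its reads lay at 1 position. The cluster at 3258458 to 3258483 on the minus strand of chromosome 9 had 131 against 35 reads, a ratio of 2.49 (1.71 to 3.73), with 92.4% at 1 position. The cluster at 123218182 to 123218207 on the plus strand of chromosome 10 had 70 against 15 reads, a ratio of 3.11 (1.76 to 5.85), with 92.9% at 1 position. The others, on chromosome 13, plus strand, from 44828138 and on chromosome 4, minus strand, from 131908283, had ratios of 3.33 (1.25 to 11.1) and 3.73 (1.42 to 12.4). Each of the 5 lay 280 to 739 nt from its nearest cluster. The isolated region B clusters of that size had a median log2 ratio of 1.07, and the listed log2 ratios of these 5 were 1.09 to 1.69.

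At the limit of 1000 nt, clusters just inside and just outside had the same low counts. The last pair inside, on chromosome 2, minus strand, from 101790777 and from 101791801, lay 998 nt apart, and each had 5 tagged reads against 0. The first outside, on the minus strand of chromosome 11 from 74490801 and of chromosome 8 from 26926410, lay 1003 and 1006 nt from their nearest cluster and also had 5 reads against 0.

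Chromosomes differed in how much of their region B lay near other clusters. Leaving out chrM and Y, the share ran from 39% on chromosome 17, with 76 clusters, to 61.8% on chromosome 1, with 312. By number, chromosomes 1 and 11 led, with 312 clusters in 120 loci and 284 in 108. With chrM and Y again left out, the share with 0 untagged reads was lowest on chromosome 12, at 88% (66 of 75). It was highest on chromosome 2, at 96.2% (175 of 182). Reads were not matched between chromosomes, and no intervals were taken for these shares. On chrM all 9 region B clusters had a near neighbour, the untagged library had 0 reads at only 5 of them (55.6%), and the largest had 28 tagged against 2 untagged reads, a ratio of 9.33 (2.35 to 80.8). The mitochondrial cluster at 3122 to 3147 had 16 against 4 reads, a ratio of 2.67 with an interval of 0.86 to 11 that includes equal levels.

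Few of the clusters lay near clusters enriched in the untagged library. Of the 2870, 7 (0.244%, 0.118 to 0.503) had an untagged-list cluster on their strand within 1000 nt, against 1 of 2860 isolated and 39 of 4897 region C2 clusters (0.796%, 0.583 to 1.09). The 7 lay in 3 loci, on chrM, chromosome 9 and chromosome 10. On chromosome 9, plus strand, the clusters from 64023971 and 64024844, with 6 and 10 tagged reads against 0, flanked an untagged-list cluster that had a log2 ratio of 2.81 in the other direction. Both lists were selected against each other, so overlap itself could hardly occur, and 0 clusters overlapped or touched.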

How the data were processed

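Members and lists were chosen with earlier results of these data known. The authors deposited 1 list of read clusters per library, on the mm9 build per the submitters' processing notes. Aligner, cluster caller and duplicate handling: not given in the sources used here. Every cluster as deposited carries the count of reads at its highest position and 3 joined values, read from the values themselves as own reads, a log2 ratio after adding 1, and a one-sided exact binomial p. Untagged reads were recovered as the whole number matching both the ratio (tolerance 0.006) and the p (tolerance 0.0001, or 0.001 in relative terms for p below it), for 100% of clusters. 5 of the tagged list had several such numbers, and the closest to the p was taken. They were rounded multiples of a factor between 1.5 and 1.502. The midpoint, 1.501, served as depth factor, which is inferred. Ratios called depth-adjusted use unscaled reads and this factor, with Clopper-Pearson 95% intervals. Shares have Wilson intervals and medians binomial order-statistic intervals. The scripts were tested on simulated data. Python 3.11.15, pandas 2.3.3 and scipy 1.17.1 were used. Named clusters were, by rule, the 10 loci with the most members, the 10 lowest p, the 5 with most reads against 0, the 5 lowest ratios from 20 reads, and 2 on each side of 1000 nt; the chrM clusters, those near the untagged list and the 6 stacked clusters were chosen after their values were seen. The gene table used here carries another build, so no gene names, gene lists or sequences were assigned to clusters.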

Additional observations from a re-analysis of the deposited data

How the results depend on the processing

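With 1 library per group no replicate could be left out. No paired analysis was possible because there was 1 library a group. Of 130 values, each 1 result under 1 alternative setting, 88 stayed within limits (1.5-fold for counts, the 95% interval for shares and medians) and 42 moved. Motif alternatives were not run. The number of members moved by construction where a setting kept 1610 or fewer, and the cause of other moves was not tested. Some values stayed by construction, such as results from 20 reads when only clusters of at least 20 reads were kept. The alternatives chosen after seeing the data were members over 200 nt from a neighbour, isolated clusters over 10000 nt from one, shapes from 8 reads, and position by size of the locus. A near distance of 200 nt gave 31.6% past a log2 ratio of 3, 1.11% stacked and 72.8% with a C2 name in reach; 5000 nt gave 84.4% in reach. A listed p of at most 0.01 left 976 members with a median ratio of 3.17, 9 reads, 84.3% with 0 untagged reads and 87.8% past the fold, and an isolated median from 20 reads of 1.28. At least 20 reads left 104 members with a ratio of 3.25, 25 reads, 31.7% with 0 untagged reads and 64.4% past the fold. Merging within 50 nt gave 31.8% past the fold. With 1 member per locus there were 1209, with 7 reads, 89.3% with 0 untagged reads and 48.3% past the fold. The depth-aware test left 1610, with a ratio of 3, 7 reads, 85.8% with 0 untagged reads and 53.2% past the fold, and an isolated median of 1.17. Members over 200 nt from a neighbour had 5 reads, 94.2% with 0 untagged reads, 23.2% past the fold and, from 20 reads, 47.5% at the highest position and 35.7% stacked. Overlap or 100 nt left 0 members near the untagged list, and 10000 nt gave 26. The members' spread share was 52.6% from 40 reads and 54.8% with limits of 40% and 85%. For isolated clusters the spread share was 9.78% from 10 reads, 12.2% from 8 reads and 2.22% with those limits, and the stacked share 71.9%, 69.6% and 66.6%. In each of these alternatives that gave both values, members from 20 reads kept a higher median ratio than isolated clusters. Not all of them could alter the members' value. With a listed p of at most 0.01, at least 20 reads or the depth-aware test it stayed at 3.25 (3.06 to 3.91). All 104 members of that size passed the depth-aware test.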
